A study of Mus musculus with 24 samples.

Results

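Growth arrest and DNA damage response genes were followed in mouse hearts. Some carried a transgene for a protein of cAMP signalling in their muscle cells, and others were controls. The values are of RNA and do not measure cAMP signalling itself. The set was chosen by name as 10 genes: the inhibitors of cyclin-dependent kinases Cdkn1a, Cdkn1b, Cdkn1c and Cdkn2c, the stress genes Gadd45a, Gadd45b and Gadd45g, the cyclin Ccng1, the antiproliferative gene Btg2, and Trp53. All probe sets annotated to exactly 1 of these symbols were taken, which gave 16 probe sets of 9 genes among 45037 probe sets of 18193 genes. Trp53 is not analysed here. Hearts came from mice aged 90 days, with 4 genotypes and 6 biological replicates of each. The controls (NTG) were mice without a transgene. The other genotypes carried a human cDNA under the alpha-myosin heavy chain promoter, which directs expression to cardiac myocytes: type 5 adenylyl cyclase (AC5), the beta1-adrenergic receptor with glycine at its polymorphic residue (beta1-Gly389, GLY) or the same receptor with arginine there (beta1-Arg389, ARG). The labels name no strain, sex or number of founder lines, so a genotype may stand for 1 transgenic line.

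Cyclin-dependent kinases drive a cell through its division cycle, and their inhibitors stop it. The Cip/Kip inhibitors p21 (Cdkn1a), p27 (Cdkn1b) and p57 (Cdkn1c) bind cyclin and kinase complexes, and the Ink4 inhibitor p18 (Cdkn2c) binds the kinases Cdk4 and Cdk6. The transcription factor p53 switches on Cdkn1a, Gadd45a, Ccng1 and Btg2 after DNA damage. The small acidic Gadd45 proteins bind p21, PCNA and the kinase Map3k4, which leads to p38 and JNK. Adult heart muscle cells have mostly left the cell cycle, so these genes are also read there as stress response genes.

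Each value was read as a ratio to the control level, near 1 in NTG hearts, though the divisor is not stated. On that reading it shows how far a gene moved from control hearts and says nothing of its abundance. Ratios over all arrays ran from 0.0636 to 34.8, and the median log2 ratio of an array lay between -0.05 and 0.09. The number of hearts sets the precision. A change was called when limma's adjusted p was under 0.05, over all probe sets of a comparison, and only such changes are said to have risen or fallen. Changes are log2 differences ± SE. The labels name no batches. NTG replicates 1 to 3 and 4 to 6 each centred near 1 on their own, but arrays of every genotype did so too. That centring therefore cannot show whether these sets of replicates were processed apart. Values within the sets are given beside the pooled ones as a description. GLY replicates 1 and 3 and ARG replicate 1 had array weights of 0.354, 0.312 and 0.478, the lowest of all 24 arrays, and results were repeated without them. In whole hearts, a change in how many cells of a type there are and a change in RNA per cell cannot be told apart.

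In ARG hearts the set split. Cdkn1a and Cdkn2c rose, Gadd45a, Cdkn1c and Btg2 (at 1448272_at only) fell, and Cdkn1b, Gadd45b, Gadd45g and Ccng1 were not called. That was 6 of 16 probe sets called, 3 in each direction, where 9.67% of all probe sets were called (4.04% rose and 5.63% fell). In GLY hearts 2 probe sets fell, those of Gadd45a and Gadd45g, and none rose, where 5.08% of all probe sets were called (1.55% rose and 3.53% fell). Within replicates 1 to 3 and 4 to 6 alone, 2 and 3 of 16 were called in ARG, where 2.89% and 5.59% of all were, and 1 and 0 in GLY, where 6.08% and 0.16% of all were. In AC5 hearts none of the 16 was called, against 0.142% of all probe sets. The median change over the 16 was -0.09 in ARG, -0.10 in GLY and -0.06 in AC5, beside 0.00, 0.03 and 0.00 over all probe sets. These comparisons share the NTG hearts. The members were named with earlier results of these data known. The counts here and below, set beside the shares over all probe sets, are therefore a description and not a test of the set.

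**Figure D1:**
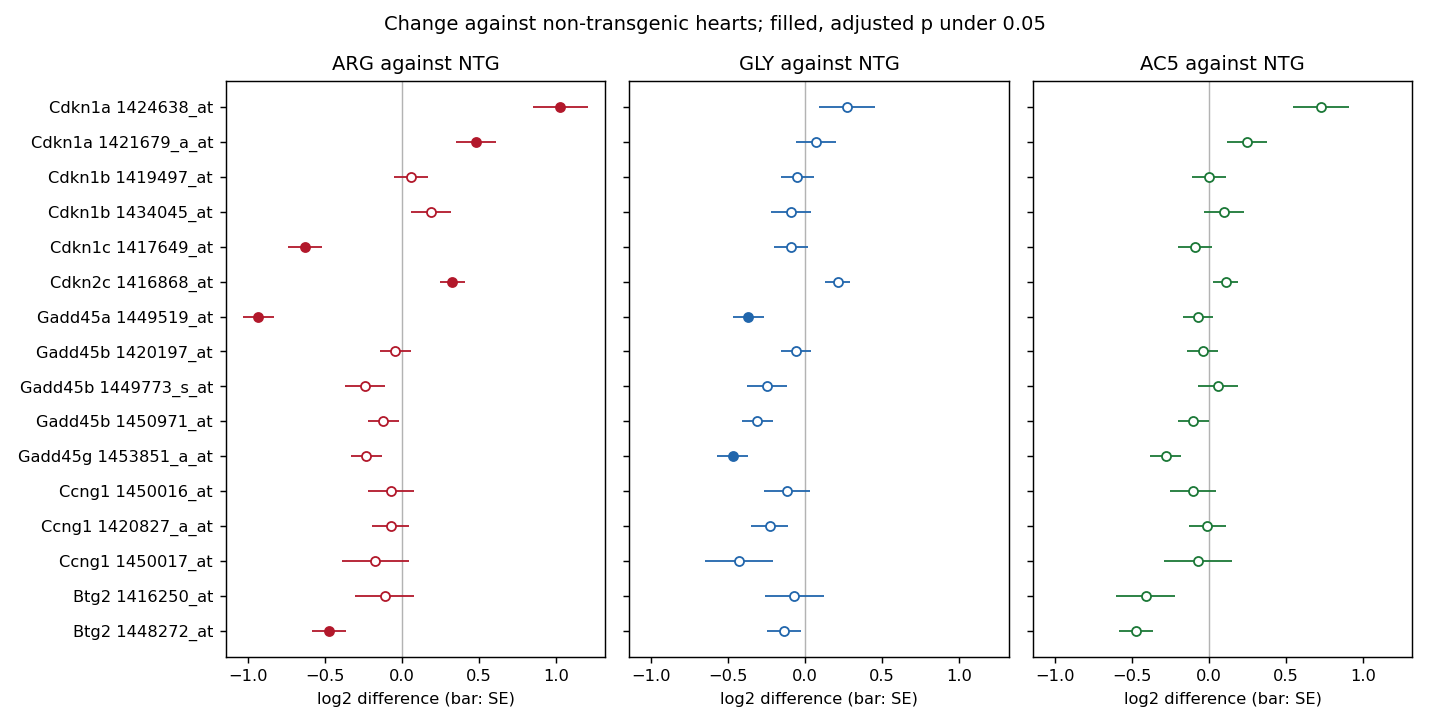
Log2 difference (x axis, bar: SE) of each of the 16 probe sets (rows) in ARG, GLY and AC5 hearts against NTG hearts, 6 hearts per genotype, with filled points for an adjusted p under 0.05. The 6 filled points in ARG lie on both sides of 0, from -0.93 for Gadd45a to 1.03 for Cdkn1a, and AC5 has no filled point.

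Upstream sequences are shown for 4 members whose changes differed in sign or in genotype: Cdkn1a, Gadd45a, Gadd45g and Btg2. Cdkn1a rose in ARG, Gadd45a fell in both receptor genotypes and Gadd45g fell in GLY. At 1448272_at Btg2 fell in ARG and did not overlap with NTG in AC5, but neither was so at its other probe set. Each window is the 250 bases before the annotated start, 5′ to 3′ on the strand of the gene, from RefSeq on GRCm38.p6. The windows are chr17:29090729-29090978 on the plus strand for Cdkn1a (the more upstream of its 2 annotated starts), chr6:67037408-67037657 on the minus strand for Gadd45a, chr13:51846425-51846674 on the plus strand for Gadd45g and chr1:134079156-134079405 on the minus strand for Btg2. Capitals mark 3 kinds of motif found on either strand: the cAMP response element TGACGTCA or its core TGACG, the CCAAT box, and single decamers of the p53 consensus.
Cdkn1a: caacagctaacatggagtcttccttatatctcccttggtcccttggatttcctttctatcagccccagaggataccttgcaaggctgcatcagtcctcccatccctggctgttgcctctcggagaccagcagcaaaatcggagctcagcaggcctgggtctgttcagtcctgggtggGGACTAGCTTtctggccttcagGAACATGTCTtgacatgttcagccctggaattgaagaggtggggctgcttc
Gadd45a: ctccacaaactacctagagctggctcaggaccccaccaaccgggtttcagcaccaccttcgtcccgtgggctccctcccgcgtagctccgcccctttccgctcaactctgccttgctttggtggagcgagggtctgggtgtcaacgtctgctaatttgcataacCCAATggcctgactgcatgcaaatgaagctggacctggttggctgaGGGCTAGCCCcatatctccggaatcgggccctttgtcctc
Gadd45g: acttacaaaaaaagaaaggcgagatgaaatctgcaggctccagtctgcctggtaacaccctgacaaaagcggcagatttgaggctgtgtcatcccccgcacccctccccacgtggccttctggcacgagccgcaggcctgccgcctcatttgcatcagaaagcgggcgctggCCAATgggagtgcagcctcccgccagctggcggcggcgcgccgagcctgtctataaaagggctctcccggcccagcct
Btg2: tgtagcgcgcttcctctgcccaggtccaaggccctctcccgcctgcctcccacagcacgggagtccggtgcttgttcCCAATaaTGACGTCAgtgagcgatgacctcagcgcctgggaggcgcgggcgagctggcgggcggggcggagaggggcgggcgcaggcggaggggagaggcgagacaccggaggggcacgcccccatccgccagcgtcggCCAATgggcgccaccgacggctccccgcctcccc
In the Cdkn1a window 2 p53 decamers begin 73 and 51 bases before the start. The window of its other annotated start, chr17:29093519-29093768, holds none of these motifs. The Gadd45a window holds 1 p53 decamer, 40 bases before the start, and 1 CCAAT box at 86 bases. The Gadd45g window holds 1 CCAAT box. The Btg2 window holds 1 full cAMP response element, 166 bases before the start, which contains the core on both strands, and 2 CCAAT boxes. Over 32851 such windows of all genes, 7.13% hold a p53 decamer, 1.55% the full cAMP response element, 17.8% its core and 33.8% a CCAAT box. Among members whose windows are not shown, Ccng1, called in no comparison, also has a p53 decamer, 185 bases before the start. Neither window of Cdkn2c, which rose in ARG, holds any of the 3 kinds of motif. Of these motifs, the windows of Cdkn1b and Gadd45b, called in no comparison, hold only CCAAT boxes. A match describes the letters and is not a measured binding site.

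Cdkn1a, the gene of p21, has 2 probe sets. At 1424638_at the ratio in NTG hearts was 0.795 at the lowest, 0.955 at the median and 1.1 at the highest. In ARG hearts it was 1.44, 1.86 and 2.68. Every ARG heart lay above every NTG heart. The rise was 1.03 ± 0.18 (2.04-fold, adjusted p = 0.000259, n = 6 hearts per genotype), and 0.94 ± 0.17 and 1.13 ± 0.28 within replicates 1 to 3 and 4 to 6. In AC5 hearts the ratio was 1.12 at the lowest, 1.44 at the median and 2.81 at the highest. All 6 AC5 hearts also lay above all NTG hearts, with replicate 5 highest, yet the change of 0.73 ± 0.18 was not called (adjusted p = 0.114). With quantile normalization that adjusted p was 0.00416 and the change 0.88, and it was 0.017 with array weights, 0.0167 with a weight per genotype and 0.0449 with AC5 and NTG fitted alone. In all, 5 of 14 other settings passed, counting the unadjusted exact permutation test. With 1 array left out, 0 of 12 fits called it (adjusted p from 0.0527 to 0.266). GLY hearts overlapped NTG hearts, from 0.808 to 1.51 with a median of 1.08, and their change was 0.27 ± 0.18 (adjusted p = 0.454).

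The other Cdkn1a probe set, 1421679_a_at, moved the same way by less. Its ratio was 0.836, 0.986 and 1.11 in NTG hearts and 1.09, 1.34 and 1.62 in ARG hearts (lowest, median and highest), and 5 of 6 ARG hearts lay above all NTG hearts. The rise in ARG was 0.48 ± 0.13 (adjusted p = 0.0149), and the adjusted p was 0.0645 with quantile normalization. Within replicates 1 to 3 and 4 to 6 the change was 0.40 ± 0.14 and 0.56 ± 0.20. Its change was 0.25 ± 0.13 in AC5 (adjusted p = 0.728) and 0.07 ± 0.13 in GLY (adjusted p = 0.835). Over the 24 hearts the log2 ratios of the 2 probe sets had a Pearson r of 0.90, and of 0.85 around the genotype means, as a description of probe sets measured on the same arrays.

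Cdkn1c, the gene of p57, an imprinted inhibitor, moved the opposite way. Its ratio at 1417649_at was 0.855, 1.02 and 1.4 in NTG hearts and 0.576, 0.679 and 0.757 in ARG hearts (lowest, median and highest). Every ARG heart lay below every heart of the other 3 genotypes. The fall against NTG was by 0.63 ± 0.11 on the log2 scale (0.647-fold, adjusted p = 0.000236), with changes of -0.53 ± 0.17 and -0.72 ± 0.12 within the sets. The fall against AC5 was by 0.54 ± 0.11 (adjusted p = 0.00267). AC5 hearts ranged from 0.898 to 1.12 and GLY hearts from 0.791 to 1.17, and neither change against NTG was called (-0.09 ± 0.11 in each, adjusted p = 0.937 and 0.741).

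Cdkn2c, the gene of p18, rose a little in ARG. The ratio at 1416868_at was 0.967, 1.02 and 1.07 in NTG hearts and 1.13, 1.29 and 1.49 in ARG hearts (lowest, median and highest), with no overlap. The rise was 0.33 ± 0.08 (1.26-fold, adjusted p = 0.0085), and 0.39 ± 0.13 and 0.28 ± 0.10 within the sets. With quantile normalization it was 0.24 and was not called (adjusted p = 0.139). In GLY the 6 hearts, from 1.07 to 1.4, also lay above the NTG hearts, with a change of 0.21 ± 0.08 that was not called (adjusted p = 0.162).

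Cdkn1b, the gene of p27, was called in none of the 6 comparisons at either of its probe sets. At 1419497_at the ARG change was 0.06 ± 0.11, with a 95% interval from -0.18 to 0.29, and at 1434045_at it was 0.19 ± 0.13, with an interval from -0.08 to 0.47. The probe sets had a Pearson r of 0.01 over the 24 hearts, so they did not vary together.

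Gadd45a had the smallest adjusted p of the 16 probe sets in ARG. The ratio at 1449519_at was 0.84, 0.978 and 1.09 in NTG hearts (lowest, median and highest). It was 0.731, 0.924 and 1.2 in AC5 hearts, 0.693, 0.741 and 0.808 in GLY hearts and 0.414, 0.525 and 0.588 in ARG hearts. ARG hearts lay below all others without overlap, GLY hearts lay below all NTG hearts, and AC5 hearts overlapped both GLY and NTG hearts. The fall in ARG was by 0.93 ± 0.10 (0.524-fold, adjusted p = 3.84e-07), with changes of -0.99 ± 0.13 and -0.87 ± 0.11 within the sets. The fall in GLY was by 0.37 ± 0.10 (0.774-fold, adjusted p = 0.0288), with changes of -0.45 ± 0.13 and -0.29 ± 0.11 within the sets. That call in GLY was lost when 1 of 5 hearts was left out: in the NTG group replicate 2 (adjusted p = 0.0585), 3 (0.0802) or 6 (0.0593), and in the GLY group replicate 1 (0.0673) or 3 (0.0604). It was also lost without the 3 arrays of low weight (0.107) and with quantile normalization (0.291). In AC5 the change was -0.07 ± 0.10 (adjusted p = 0.949), with a change of -0.34 in the set of replicates 1 to 3 and of 0.19 in the other set. In the order of levels ARG, GLY, AC5, NTG, the neighbours ARG and GLY differed, while GLY against AC5 (-0.30 ± 0.10, adjusted p = 0.192) and AC5 against NTG were not called.

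Gadd45g, which is often induced by cytokines, fell in GLY at 1453851_a_at. Its ratio was 0.73, 0.992 and 1.1 in NTG hearts and 0.612, 0.678 and 0.796 in GLY hearts (lowest, median and highest), and 4 of 6 GLY hearts lay below all NTG hearts. The lowest NTG heart was replicate 5, which lay apart from the other 5 NTG hearts. The fall in GLY was by 0.47 ± 0.10 (0.723-fold, adjusted p = 0.00691), with changes of -0.48 ± 0.11 and -0.45 ± 0.16 within the sets and an adjusted p of 0.156 with quantile normalization. AC5 hearts ranged from 0.716 to 0.876 and ARG hearts from 0.676 to 0.967. Their changes were -0.28 ± 0.10 (adjusted p = 0.448) and -0.23 ± 0.10 (adjusted p = 0.178). Without NTG replicate 5 the adjusted p in ARG was 0.041.

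Gadd45b, a target of TGF-beta and NF-kappaB signalling, was not called at any of its 3 probe sets in any of the 6 comparisons. At 1450971_at GLY hearts had ratios of 0.658, 0.827 and 0.964 and NTG hearts 0.924, 1.05 and 1.11 (lowest, median and highest). The GLY change there was -0.31 ± 0.10 (adjusted p = 0.0564), and it passed the threshold without GLY replicate 1 (0.04), without GLY replicate 2 (0.0409), with array weights (0.0112), with the set of replicates as a term (0.0488) and without the 3 arrays of low weight (0.0468). The GLY change was -0.25 ± 0.13 at 1449773_s_at and -0.06 ± 0.10 at 1420197_at. In ARG the 3 changes ran from -0.24 to -0.04.

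**Figure D2:**
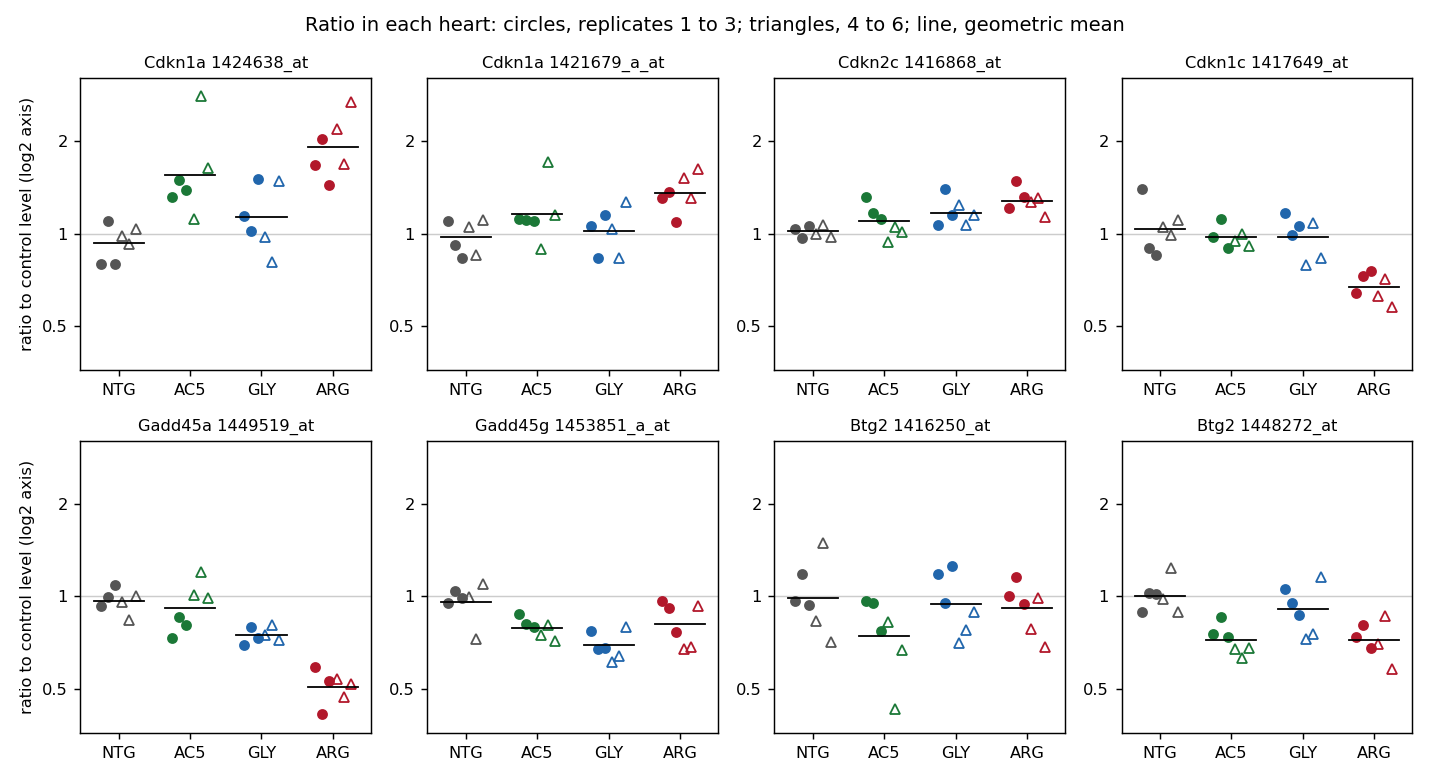
Ratio to the control level (y axis, log2 scale) in each heart of the 4 genotypes (x axis), for 8 probe sets of 6 genes, with circles for replicates 1 to 3, triangles for replicates 4 to 6 and a line at the geometric mean. ARG hearts lie apart from NTG hearts for Cdkn1a 1424638_at, Cdkn2c, Cdkn1c, Gadd45a and Btg2 1448272_at, and GLY hearts lie between ARG and NTG hearts for Gadd45a.

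Ccng1, the gene of cyclin G1, was not called in any comparison, but single GLY hearts stood apart. At 1450017_at GLY replicates 1 and 3 had ratios of 0.407 and 0.313, while the other 4 GLY hearts had ratios from 0.937 to 1.2 and the NTG hearts from 0.841 to 1.14. The same 2 hearts were the lowest GLY hearts at 1450016_at (0.652 and 0.616) and at 1420827_a_at (0.621 and 0.541). They are the GLY arrays of low weight. The GLY change at 1450017_at was -0.43 ± 0.22 (adjusted p = 0.302), which was -0.96 ± 0.30 in the set that holds both hearts and 0.09 ± 0.12 in the other set. Without the 3 arrays of low weight it was 0.08 (adjusted p = 0.808). In ARG the changes at the 3 probe sets ran from -0.17 to -0.07, with adjusted p from 0.773 to 0.877.

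**Figure D3:**
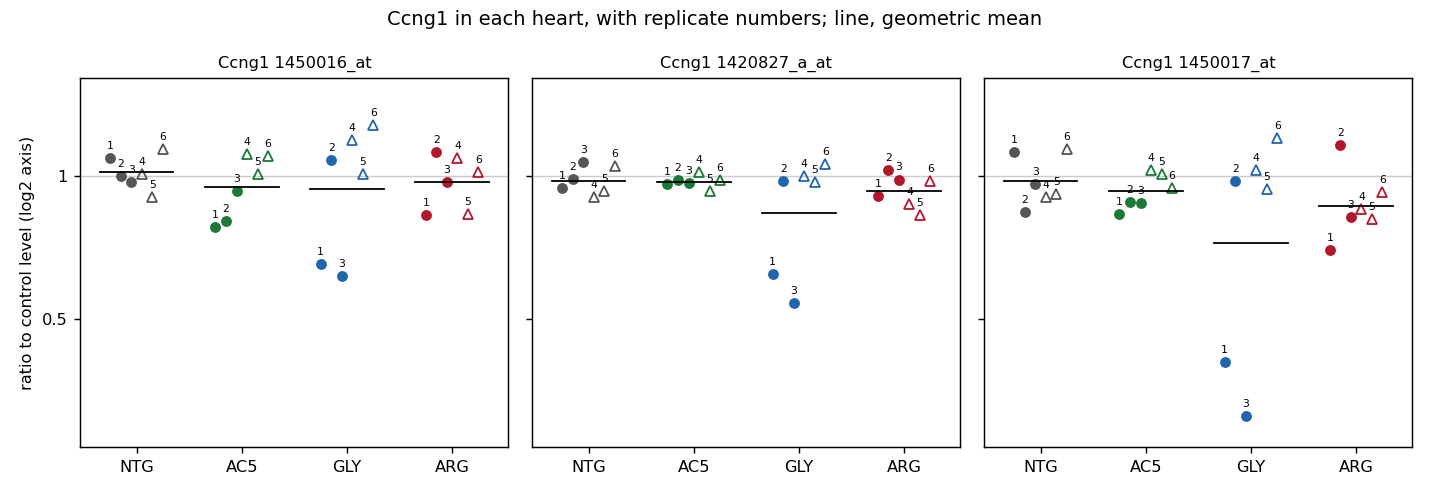
Ratio to the control level (y axis, log2 scale) of the 3 Ccng1 probe sets in each heart of the 4 genotypes (x axis), labelled with the replicate number, with a line at the geometric mean. GLY replicates 1 and 3 are the lowest GLY hearts in each panel, at 0.407 and 0.313 at 1450017_at.

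Btg2, which slows proliferation and acts in mRNA decay, gave different results at its probe sets. At 1448272_at the ratio was 0.89, 0.998 and 1.24 in NTG hearts, 0.583, 0.72 and 0.862 in ARG hearts and 0.629, 0.711 and 0.858 in AC5 hearts (lowest, median and highest). All 6 ARG hearts and all 6 AC5 hearts lay below all NTG hearts. The fall in ARG was by 0.47 ± 0.11 (0.723-fold, adjusted p = 0.00621), with changes of -0.40 ± 0.12 and -0.54 ± 0.18 within the sets and an adjusted p of 0.052 with quantile normalization. The AC5 change was as large, -0.47 ± 0.11, but was not called (adjusted p = 0.0977). It was called with quantile normalization (-0.62, adjusted p = 0.0136), array weights (0.0144), a weight per genotype (0.0104) and AC5 and NTG fitted alone (0.0207). In all, 5 of 13 other settings passed, counting the unadjusted exact permutation test. With 1 array left out, 0 of 12 fits called it (adjusted p from 0.0989 to 0.223). The difference between ARG and AC5 was 0.01 ± 0.11, with a 95% interval from -0.23 to 0.24. GLY hearts ranged from 0.729 to 1.16, with a change of -0.14 ± 0.11 (adjusted p = 0.551).

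At the other Btg2 probe set, 1416250_at, the NTG hearts spread from 0.71 to 1.49, and no change was called. The changes were -0.11 ± 0.19 in ARG, -0.07 ± 0.19 in GLY and -0.41 ± 0.19 in AC5 (adjusted p = 0.635). AC5 replicate 5 was the lowest AC5 heart at both Btg2 probe sets, 0.432 here, and the highest AC5 heart at both Cdkn1a probe sets.

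Over the 16 probe sets, hearts did not overlap between ARG and NTG at 5, where 6.11% of all probe sets did so. They did not overlap at 2 between GLY and NTG (2.68% of all), Gadd45a and Cdkn2c, and at 2 between AC5 and NTG (1.22% of all), Cdkn1a 1424638_at and Btg2 1448272_at. Beside the 0 calls in AC5, limma gave an unadjusted p under 0.05 at 4 of 16 probe sets, against 7.26% of all. The exact permutation test did so at 3, but it was run on the members only. That count therefore has no share over all probe sets beside it and is not read as a result. Hearts that do not overlap always give a two-sided exact permutation p of 0.00216, the smallest for 6 against 6 hearts. That p therefore adds nothing to the separations in ARG, GLY or AC5.

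The receptor forms were then compared directly. Between ARG and GLY hearts 3 of 16 probe sets were called, where 1.51% of all were (0.793% higher and 0.713% lower in ARG). Within the sets of replicates 0 and 1 were called, where 0.404% and 0.426% of all were. Gadd45a was lower in ARG, by 0.56 ± 0.10 (0.677-fold, adjusted p = 0.00286), with differences of -0.55 ± 0.13 and -0.58 ± 0.11 within the sets. Cdkn1c was lower by 0.54 ± 0.11 (0.686-fold, adjusted p = 0.00758), with differences of -0.60 ± 0.17 and -0.49 ± 0.12 within the sets. Neither gene overlapped between the genotypes, as was so for 0.793% of all probe sets. Both calls were lost with quantile normalization (adjusted p = 0.182 and 0.316). Within 1 set of 3 replicates alone the adjusted p was 0.079 and 0.0333 for Gadd45a and 0.103 and 0.136 for Cdkn1c. The call of Cdkn1c was also lost without the 3 arrays of low weight (0.0733).

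Cdkn1a at 1424638_at was higher in ARG than in GLY by 0.76 ± 0.18 (1.7-fold, adjusted p = 0.0259), and 5 of 6 ARG hearts lay above all GLY hearts. That call was lost when any 1 of GLY replicates 1, 2, 4 or 5 or ARG replicates 2, 4 or 6 was left out, with adjusted p up to 0.0785, and also with quantile normalization (0.287), a weight per genotype (0.112), ARG and GLY fitted alone (0.0892) and each set of replicates alone (0.167 and 0.168). At 1421679_a_at the difference was 0.41 ± 0.13 (adjusted p = 0.12), which passed without GLY replicate 6 (0.0386). Gadd45g, called in GLY and not in ARG, differed between them by 0.23 ± 0.10 (adjusted p = 0.303). Btg2 at 1448272_at, called in ARG and not in GLY, differed by -0.33 ± 0.11 (adjusted p = 0.16). So for these 2 genes a difference between the receptor forms was not called. For Cdkn2c the difference was 0.13 ± 0.08, with an interval from -0.04 to 0.30.

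**Figure D4:**
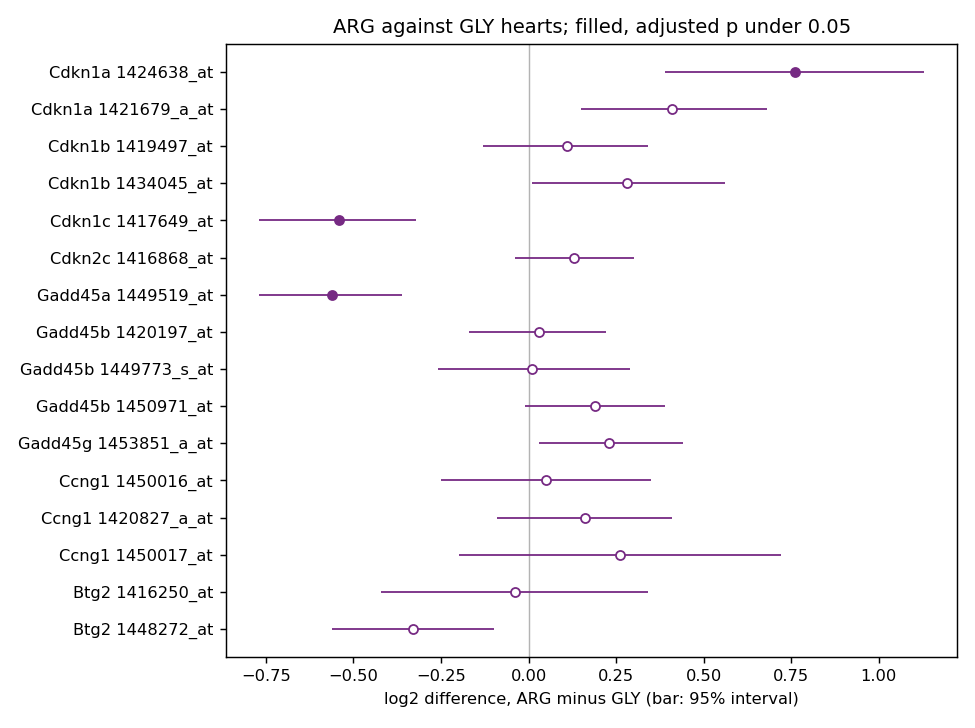
Log2 difference between ARG and GLY hearts (x axis, ARG minus GLY, bar: 95% interval) for each of the 16 probe sets (rows), 6 hearts per genotype, with filled points for an adjusted p under 0.05. Gadd45a and Cdkn1c lie at -0.56 and -0.54, and Cdkn1a 1424638_at at 0.76.

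Against AC5 hearts, ARG hearts were lower at 2 of 16 probe sets and higher at none. Over all probe sets 4.93% were called, 2.52% higher and 2.41% lower, and 3.07% did not overlap, as was so for these 2. Within the sets 1 and 2 were called, where 0.542% and 3.04% of all were. Gadd45a fell by 0.86 ± 0.10 (adjusted p = 4.75e-06) and Cdkn1c by 0.54 ± 0.11, with an adjusted p of 0.0659 for Cdkn1c after quantile normalization. Gadd45b at 1449773_s_at, not called (-0.30 ± 0.13, adjusted p = 0.277), passed without ARG replicate 6 (0.041). Cdkn1a at 1424638_at differed by 0.30 ± 0.18 between them, with an interval from -0.07 to 0.67. Between GLY and AC5 hearts limma called none of the 16, where 0.693% of all were called, and none of them was free of overlap, as 0.995% of all were. The unadjusted p was under 0.05 at 5 of 16, where 11.8% of all were. The exact permutation p was so at 4, with no share over all probe sets for that test.

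Other genes of the pathway were taken as lists, each gene by 1 probe set chosen without its values. Over all genes by 1 probe set, 11.3% were called in ARG (4.24% rose and 7.1% fell), 5.45% in GLY (1.34% rose and 4.12% fell), 0.176% in AC5 and 1.9% between ARG and GLY (0.989% higher and 0.907% lower in ARG). Of 22 further p53 targets 3 rose and 4 fell in ARG, with a median of 0.01 beside -0.01 over all genes. Plk2, a kinase of centriole duplication, rose by 1.09 ± 0.17 (adjusted p = 6.6e-05) at 1 of 2 probe sets. Phlda3, an inhibitor of Akt (0.54 ± 0.14), and the autophagy gene Dram1 (0.40 ± 0.12) rose too. The genes that fell were the damage recognition genes Ddb2 (by 0.64 ± 0.10, adjusted p = 5.96e-05) and Xpc (by 0.42 ± 0.08), the ribonucleotide reductase gene Rrm2b (by 0.55 ± 0.15, at 1 of 4 probe sets) and the sestrin Sesn1 (by 0.40 ± 0.13, at 4 of 4). In GLY 3 of the 22 fell and none rose, with Rrm2b falling by 0.70 ± 0.15 (adjusted p = 0.0058). Plk2 was higher in ARG than in GLY by 0.77 ± 0.17 and Ddb2 lower by 0.43 ± 0.10 (adjusted p = 0.0164 and 0.0209). In AC5 none of the 22 was called.

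Of 10 other stress-induced growth arrest genes 2 fell in ARG and none rose (median -0.01). Ddit4, an inhibitor of mTORC1, fell by 0.90 ± 0.18 (0.537-fold, adjusted p = 0.00142) and cyclin G2 (Ccng2) by 0.37 ± 0.10. In GLY 1 of them fell, Ddit3 (CHOP, by 0.35 ± 0.10). Of 8 kinases that act with Gadd45 proteins in p38 and JNK signalling 1 fell in ARG, Mapk14 (p38alpha, by 0.37 ± 0.10 at 1 of 6 probe sets). Of 9 regulators of p53 the phosphatase gene Ppm1d fell in ARG, by 0.35 ± 0.09. Other inhibitors and pocket proteins (6 genes), other Btg and Tob genes (3) and FoxO factors (3) had no call in ARG, GLY or AC5 against NTG.

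Cell cycle genes were set beside the shares over all genes by 1 probe set, 11.3% called in ARG (4.24% rose) and 1.9% between ARG and GLY. The counts of cell cycle genes are a description and are not read as a lack of calls. Of 16 proliferation markers 1 rose in ARG, Cdc20, a coactivator of the anaphase-promoting complex (0.34 ± 0.08), and the list's median was 0.07. Of 11 cyclins and cyclin-dependent kinases none was called in ARG against NTG (median 0.06), and Cdk1, the mitotic kinase, was higher in ARG than in GLY (0.30 ± 0.07, adjusted p = 0.0347). Among genes of damage sensing and repair, the checkpoint kinase gene Chek2 fell in ARG by 0.47 ± 0.09 (adjusted p = 0.000723).

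**Figure D5:**
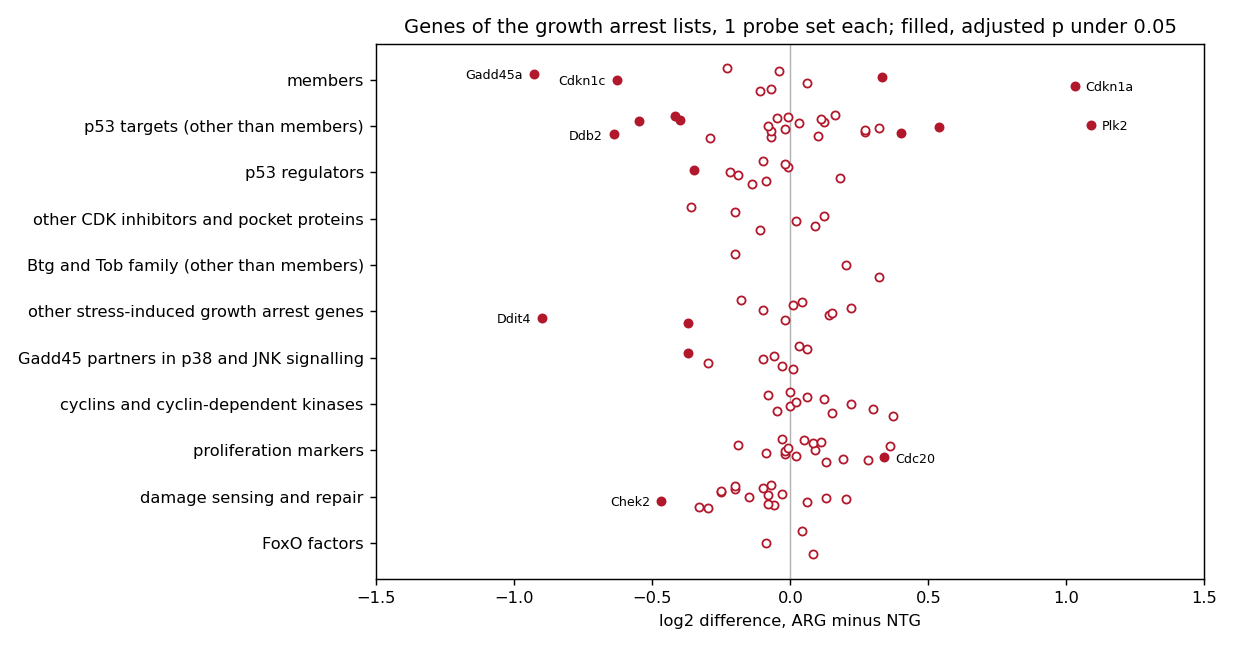
Log2 difference between ARG and NTG hearts (x axis) of each reported gene by 1 probe set, for the 9 members and for the lists of pathway genes (rows), with filled points for an adjusted p under 0.05. Most points lie near 0, Plk2 and Cdkn1a lie near 1, and Gadd45a and Ddit4 near -0.9.

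Genes whose log2 ratio followed a member most closely over the 24 hearts were taken from 18193 genes, 3 for each member called at its preferred probe set in some comparison (Cdkn1a, Cdkn1c, Cdkn2c, Gadd45a and Gadd45g), and are a description over arrays that share genotypes. For Cdkn1a they were Chac1 (Pearson r = 0.90, and 0.73 around the genotype means), Sdf2l1 (0.87 and 0.70) and Trib3 (0.87 and 0.80). In ARG against NTG their changes were 1.34, 1.42 and 0.62, and in AC5 0.81, 0.70 and 0.50. Chac1, which degrades glutathione, and the pseudokinase Trib3 are known targets of ATF4 in stressed cells, and Sdf2l1 is a protein of the endoplasmic reticulum. For Gadd45a they were Pithd1 (r = 0.91, and 0.45 around the genotype means), Thrsp (0.91 and 0.61) and Mrps25 (0.88 and 0.49), with changes of -0.69, -1.88 and -1.31 in ARG and -0.31, -1.08 and -0.86 in GLY. For Cdkn1c they were Mid1ip1 (0.91 and 0.71), Fah (0.85 and 0.61) and Pxmp4 (0.84 and 0.60). Thrsp and Mid1ip1 are related regulators of fat synthesis. For Cdkn2c they were Rap2b (0.78 and 0.68), Ctsc (0.77 and 0.61) and Tlr1 (0.77 and 0.56), and for Gadd45g Gopc (0.79 and 0.62), Snapc1 (0.71 and 0.55) and Rrnad1 (0.70 and 0.52).

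Markers of some other cell types were also called in ARG hearts. Of 16 macrophage markers 10 rose in ARG, most of all Fcgr3 (1.04 ± 0.13), and their mean log2 ratio in a heart ran from 0.21 to 0.86 in ARG, from -0.08 to 0.06 in NTG, from -0.20 to 0.19 in AC5 and from -0.29 to 0.43 in GLY. Of 12 fibroblast markers 7 rose, most of all Mfap5 (1.09 ± 0.15), and Gsn fell (by 0.64 ± 0.14). Their means ran from 0.00 to 0.80 in ARG, from -0.21 to 0.00 in NTG, from -0.47 to -0.26 in AC5 and from -0.44 to 0.51 in GLY. Of 12 endothelial markers 4 fell, most of all Egfl7 (by 0.49 ± 0.12). Their means ran from -0.46 to -0.04 in ARG, from -0.17 to 0.11 in NTG, from -0.31 to 0.03 in AC5 and from -0.52 to 0.04 in GLY. The endothelial range in ARG thus overlapped those of the other genotypes. The macrophage and fibroblast ranges in ARG overlapped those in GLY, and the fibroblast ranges in ARG and NTG met at 0.00. None of 7 smooth muscle, 9 lymphocyte or 3 red blood cell markers was called in ARG. Of 9 cardiac myocyte markers 1 rose, Nppa (1.20 ± 0.30), and the list's median change was -0.01. In GLY the calls among these markers were falls of Cd163 (by 0.52 ± 0.14), Egfl7 (by 0.45 ± 0.12) and Esam, and a rise of Cd79b (0.34 ± 0.09). Between ARG and GLY, Cd14 (0.92 ± 0.15), Postn (1.18 ± 0.24) and Nppa (1.16 ± 0.30) were the most raised of their lists in ARG. Their part in the changes of Cdkn1a, Cdkn2c, Cdkn1c, Gadd45a and Btg2 was not tested. A ratio holds no level, so which of these markers are near 0 in the hearts could not be read from it.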

How the data were processed

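Total RNA of 24 mouse hearts was hybridised to Affymetrix arrays. The deposited values are ratios on a linear scale. Per the submitters' processing notes RMA (version not given in the sources used here) was used. Division by a control level was read from the values and is not stated. Arrays of every genotype centre near 1, so the centre of an array does not show the divisor. The NTG ratios ran only from 0.291 to 2.47, while those of AC5, GLY and ARG reached 24.0, 27.0 and 34.8. Of 45101 probe sets, 64 Affymetrix controls were left out. Symbols came from the platform annotation and were updated through Entrez identifiers for 18032 genes. Without a signal level no filter on brightness was applied.

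The design assumed log2 values, so log2 of the ratio was taken and fitted with limma 3.58.1 in R 4.3.3 over all 24 arrays, with 1 mean per genotype and Benjamini-Hochberg adjustment over 45037 probe sets. The fit was checked on simulated data. Single values were also tested by a two-sided exact permutation test. The spread is shared, though the mean SD between replicates was 0.143 (NTG), 0.155 (AC5), 0.192 (ARG) and 0.221 (GLY). The members and lists were chosen with earlier results of these data known. All members were named, and from each list, for ARG, GLY and AC5 against NTG and ARG against GLY, the called genes with the largest rise and fall, except that from the damage sensing and repair list 1 gene is not reported here, so its counts and median are not given and the gene is not plotted. Phlda3, Dram1, Xpc, Sesn1, Ccng2 and Esam were named after their values were seen, as was Rrm2b in ARG. Summaries used pandas 2.3.3 and scipy 1.17.1 under Python 3.11.15, and matplotlib 3.10.9 drew the figures. Alternatives were other scalings, weights, sets of samples and probe sets.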

Additional observations from a re-analysis of the deposited data

Results flagged for a closer look

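In 64 groups of 6 hearts (16 probe sets in 4 genotypes), 2 single hearts lay far from the other 5, where chance alone flags about 1 group in 20. For Cdkn1b at 1434045_at, GLY replicate 3 had a log2 ratio of -0.34, and the other GLY hearts lay between -0.05 and 0.05. For Gadd45g at 1453851_a_at, NTG replicate 5 had a log2 ratio of -0.45, and the other NTG hearts lay between -0.07 and 0.13.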

How the results depend on the processing

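The changes of Gadd45a and of Cdkn1a at 1424638_at in ARG against NTG, and of Gadd45a in ARG against AC5, stayed called under all 14 other settings and under each of 12 arrays left out. The number of member probe sets called moved as follows. For ARG against NTG it was 6, and 3 with quantile normalization, 2 within replicates 1 to 3 and 3 within replicates 4 to 6. For GLY against NTG it was 2, and 0 with quantile normalization, 1 within replicates 1 to 3, 0 within replicates 4 to 6, 1 with the trended and robust empirical Bayes step and 4 by the unadjusted exact permutation test. For AC5 against NTG it was 0, and 2 with quantile normalization, with array weights, with a weight per genotype and with only these genotypes fitted, and 3 by the exact permutation test. For ARG against GLY it was 3, and 0 with quantile normalization, 1 with only these genotypes fitted, 0 and 1 within the sets and 5 by the exact permutation test. For ARG against AC5 it was 2, and 1 with quantile normalization and within replicates 1 to 3, and for GLY against AC5 it was 0, and 4 by the exact permutation test. With 1 array left out the number ran from 6 to 7, 1 to 3, 0 to 0, 2 to 4, 2 to 3 and 0 to 0 in these comparisons in order. No member probe set changed sign together with a call, and 2382 single values kept their side of the threshold, 43 lost a call and 29 gained one. These counts include the exact permutation test. Its unadjusted p was held to the same 0.05 as the adjusted p of the fits, so calls gained by it rest on an unlike threshold. A replicate block gave 6, 3, 0, 3, 2 and 0 calls, and with it Gadd45b at 1450971_at was called in GLY against NTG (adjusted p = 0.0404). Of 36 pairs of hearts with the same number 16 had a correlation of deviations over 0.1, and of 180 other pairs 47 did. With ARG hearts of the same number it ran from 0.0525 to 0.492 for GLY. It ran from -0.0699 to 0.212 for AC5 and from -0.0472 to 0.0184 for NTG. A link between hearts of the same number was not tested, and the main fit did not pair them. Fitting within a set leaves 3 hearts per genotype and so fewer samples. For the exact permutation test and for settings other than the sets of replicates, the share of all probe sets called is not given. Those counts of member probe sets therefore have no background beside them. Why quantile normalization changed calls was not tested. The setting without the 3 arrays of low weight was chosen after seeing the data.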
